A study of Mus musculus with 8 samples.

Results

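The genes described here encode the proteasome, the proteolytic machine that degrades ubiquitin-tagged proteins, in CD4+ T cells sorted from the livers of neonatal mice. They were taken by gene symbol from the count table: 54 symbols began with Psm, a letter from a to g and a digit, 50 remained once pseudogenes were set aside, and 48 had at least 50 counts summed over the 8 libraries. The table held 52997 symbols in all, and all 48 genes were among the 11490 with enough counts to be tested. The 2 symbols below the minimum were Psma8, a testis alpha subunit with 0 counts in every library, and Psmb11, the catalytic subunit of thymic cortical epithelium, with 15 counts in total. Psmc3ip matched the pattern but is a meiotic recombination factor and no proteasome subunit, and it is given apart.

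All mice were C57BL/6 animals that lacked Aire, the thymic regulator of self-antigen expression, and carried a GFP reporter of Foxp3, and no mice with intact Aire were included. Live CD45+ TCRb+ CD4+ cells without the reporter were divided by surface PD-1, an inhibitory receptor of stimulated T cells, giving 4 groups with 2 libraries each: PD-1+ cells at 10 days, PD-1+ cells at 5 days, PD-1- cells at 10 days and PD-1- cells at 5 days. About 1000 cells were sorted per library, and libraries held 1473216 to 3019551 counts. The labels do not state which libraries stem from different animals, and p-values measure the spread between these libraries alone, part of which may be technical.

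The transcript of the sorting marker, Pdcd1, was at 269 to 696 CPM (counts scaled to library size) in PD-1+ libraries and 0.568 to 1.95 CPM in PD-1- libraries, and Cd4 was at 685 to 1520 CPM in PD-1+ libraries, against 696 to 935 CPM in PD-1- libraries. The sex of the mice was read from the counts: 5-day replicate 3 had 601 counts of Y-linked genes in PD-1+ and 672 in PD-1- cells, with 1 and 5 counts of Xist, whereas the other 6 libraries had 0 Y-linked counts and 698 to 1842 of Xist. By these genes all 10-day libraries were female, sex was partly mixed with age, and the replicates of each 5-day group came from different animals. CPM values of individual genes include the TMM factor, a correction for library composition. Summed levels of gene lists were scaled to total counts without this factor, so they are not on the same scale.

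The core of the proteasome is a barrel of stacked rings, with alpha subunits at the ends and beta subunits in the middle. Psmb6, Psmb7 and Psmb5 supply the catalytic sites of the constitutive barrel. In immune cells, and in most cells exposed to interferon-gamma, they are replaced in newly built barrels by Psmb9, Psmb10 and Psmb8, which form the immunoproteasome and change which peptides are cut for MHC class I molecules. A cap of ATPases (Psmc genes) and non-ATPase subunits (Psmd genes) recognises and unfolds ubiquitinated proteins, chaperones (Psmg genes and some Psmd genes) assemble the parts, and PA28, made of Psme1 and Psme2, is an alternative activator that interferon-gamma also induces.

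Most proteasome genes were higher in the PD-1+ population than among PD-1- cells. The 48 genes together took 0.841 and 0.788% of all counts in PD-1+ 10-day replicates 1 and 2 and 1.09 and 0.973% in PD-1+ 5-day replicates 2 and 3. In PD-1- cells they took 0.551 and 0.585% at 10 days and 0.745 and 0.7% at 5 days. Both groups of PD-1+ libraries lay above all PD-1- libraries, and within each population the 5-day libraries lay above the 10-day ones. In bulk libraries such as these, a lower share of cells with high levels and less RNA per cell cannot be told apart.

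Over both ages, 36 of the 48 genes were called higher in PD-1+ cells, 1 was called lower and 11 were not called (edgeR's quasi-likelihood F test at a Benjamini-Hochberg adjusted p below 0.05 over all tested genes). Among all tested genes 21.9% were called higher and 19.6% lower. The median log2 fold change, PD-1+ over PD-1-, was 0.67 over the 48 genes and -0.01 over all tested genes. In 20 of the 48 genes every PD-1+ library lay above every PD-1- library, as in 17.2% of all tested genes, and in 1 gene every PD-1+ library lay below, as in 17.5%; the other 27 overlapped. The calls that went up spanned log2 fold changes of 0.43 in Psma6 to 1.51 in Psmc3ip. Without the male libraries of 5-day replicate 3, 28 genes were higher.

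**Figure D1:**
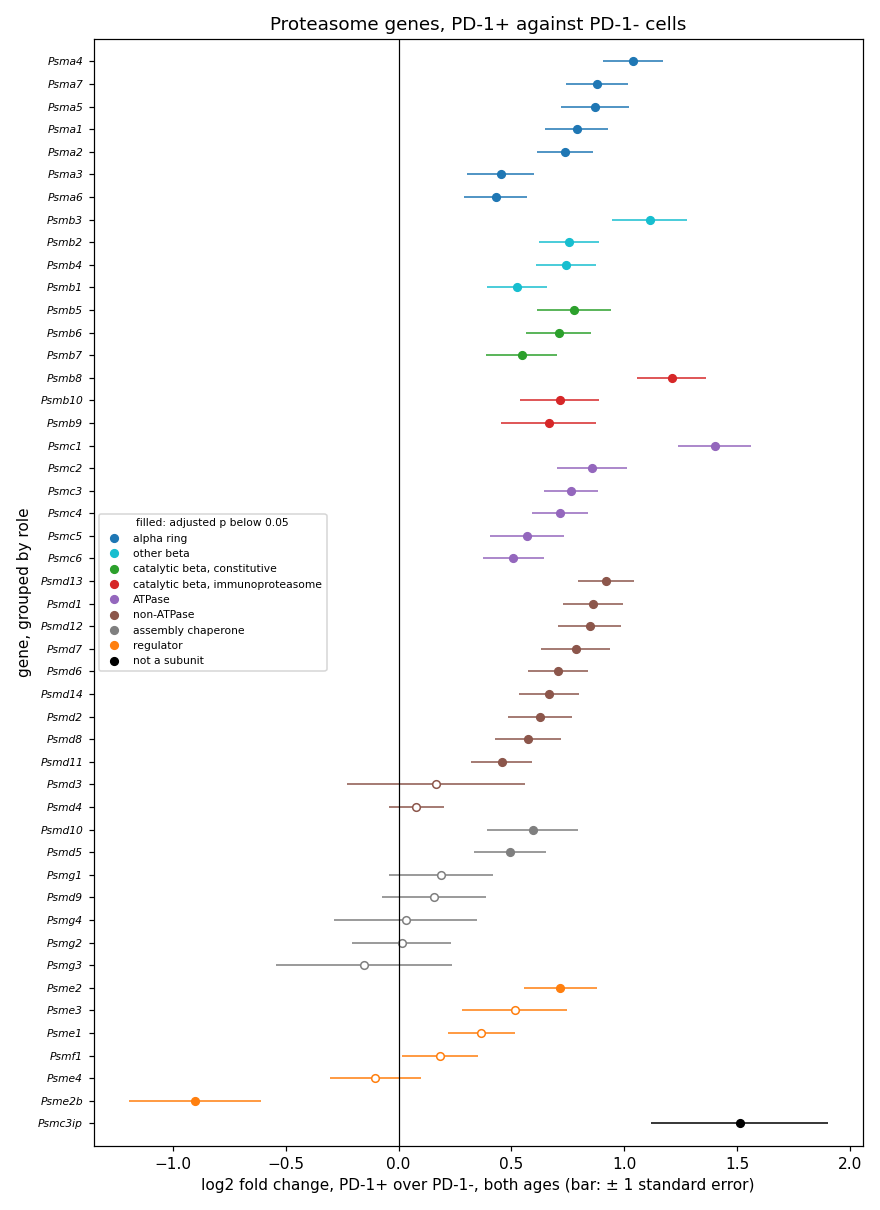
Log2 fold change of each of the 48 genes, PD-1+ over PD-1- cells over both ages (x axis), with genes grouped by role down the page; bars are 1 standard error and filled points are called at an adjusted p below 0.05. All 7 alpha, 10 beta and 6 ATPase genes are filled and to the right of 0, while 5 of 7 chaperones and 4 of 6 regulators are open.

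The alpha ring, which gates the barrel, was higher in PD-1+ cells in 7 of 7 genes. Psma4 had 132 and 130 CPM at 10 days and 208 and 192 CPM at 5 days in PD-1+ libraries, against 57.0 and 67.7 CPM at 10 days and 96.6 and 104 CPM at 5 days in PD-1- libraries. The lowest PD-1+ library thus lay above the highest PD-1- library, and the log2 fold change was 1.04 ± 0.13 (standard error; edgeR adjusted p = 2.2e-05). Psma7 (0.88 ± 0.14) and Psma5 (0.87 ± 0.15) came next, and Psma3 (0.45 ± 0.15) and Psma6 (0.43 ± 0.14) had the smallest differences.

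The structural beta subunits, which have no active site, were higher in 4 of 4 genes. Psmb3 led them with 79.1 and 69.2 CPM at 10 days and 121 and 114 CPM at 5 days in PD-1+ libraries, against 28.8 and 41.6 CPM at 10 days and 51.2 and 56.2 CPM at 5 days in PD-1- libraries (1.11 ± 0.17, edgeR adjusted p = 9.7e-05). These groups did not overlap. Psmb2, Psmb4 and Psmb1 followed with 0.76 ± 0.13, 0.74 ± 0.13 and 0.53 ± 0.13.

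Of the ATPases that unfold substrates, 6 of 6 were higher. Psmc1 had the largest difference of any subunit, with 98.7 and 108 CPM at 10 days and 162 and 161 CPM at 5 days in PD-1+ libraries, against 45.0 and 49.4 CPM at 10 days and 55.4 and 46.6 CPM at 5 days in PD-1- libraries (1.40 ± 0.16, edgeR adjusted p = 7.4e-06). Every PD-1+ library was well above every PD-1- library. Psmc2 (0.86 ± 0.16) and Psmc3 (0.76 ± 0.12) followed, and Psmc5 (0.57 ± 0.16) and Psmc6 (0.51 ± 0.14) were lowest. Psmc3 shares 215 exon bases on the opposite strand with Slc39a13, which had 233 counts against 4669 for Psmc3.

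Among the non-ATPase cap subunits, 9 of 11 were higher. Psmd13 (0.92 ± 0.12), the scaffold Psmd1 (0.86 ± 0.13) and Psmd12 (0.85 ± 0.14) had the largest differences, and Psmd14, the deubiquitinase that removes ubiquitin chains at the cap, was at 0.67 ± 0.13. Psmd4, a ubiquitin receptor, was not called and was nearly level, at 201 to 247 CPM in PD-1+ libraries, against 201 to 220 CPM in PD-1- libraries (0.08 ± 0.12, edgeR adjusted p = 0.63). Psmd3, a structural subunit of the lid, was not called either (0.17 ± 0.39, edgeR adjusted p = 0.78). Its PD-1+ libraries had 65.9 and 199 CPM at 10 days and 302 and 260 CPM at 5 days, against 169 and 174 CPM at 10 days and 209 and 136 CPM at 5 days in PD-1- libraries. PD-1+ 10-day replicate 1 alone was the low value, and without it Psmd3 was called at 0.51 (edgeR adjusted p = 0.029).

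Of the assembly chaperones 2 of 7 were higher and 5 were not called, a share of higher calls near the 21.9% of all tested genes. Psmd10, which encodes gankyrin, and Psmd5, both chaperones of the ATPase ring, were at 0.59 ± 0.20 and 0.49 ± 0.16 (edgeR adjusted p = 0.029 and 0.022). The chaperones of the alpha ring were not called, with Psmg1 at 0.19 ± 0.23, Psmg4 at 0.03 ± 0.32, Psmg2 at 0.01 ± 0.22 and Psmg3 at -0.15 ± 0.39, and Psmd9 was at 0.16 ± 0.23. The signs of Psmd9, Psmg2, Psmg3 and Psmg4, like those of Psmd3, Psmd4 and Psme4, changed under at least 1 alternative.

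**Figure D2:**
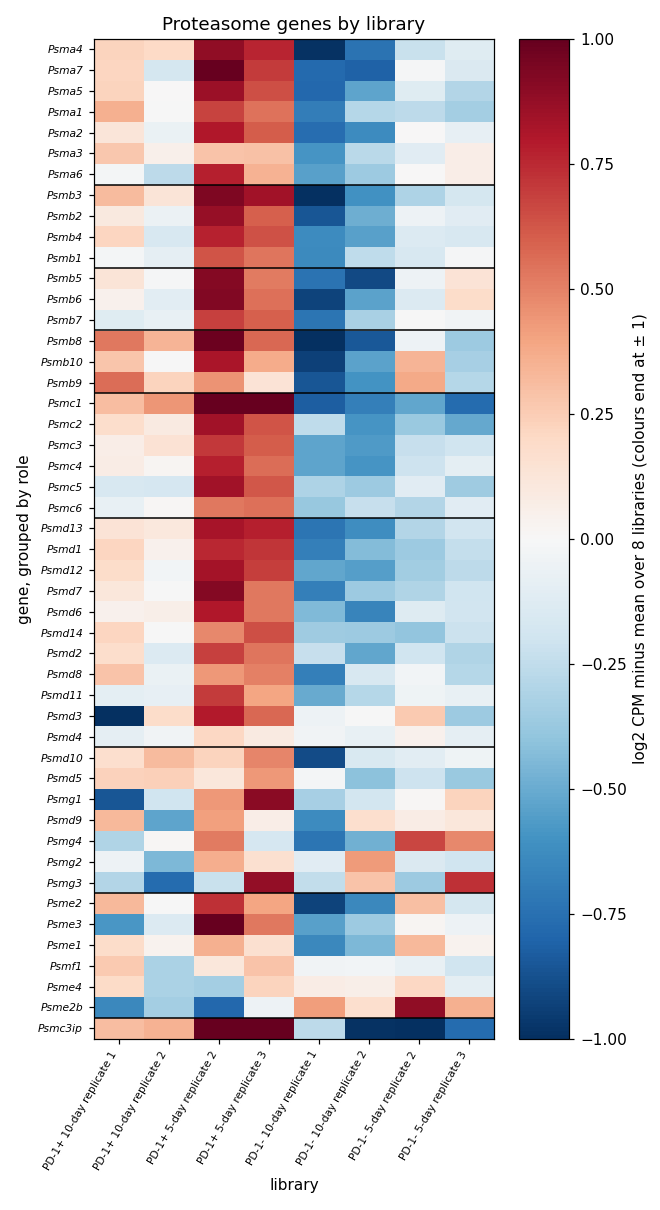
Log2 CPM of each gene minus its mean over the 8 libraries (colour, red above and blue below the mean), with genes grouped by role in rows and libraries in columns, PD-1+ on the left. The 5-day PD-1+ libraries are reddest and the 10-day PD-1- libraries bluest over most rows, and the chaperone rows and Psmd4 are paler or mixed.

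Of the regulators, Psme2, the beta chain of PA28, was higher in PD-1+ cells. It had 268 and 213 CPM at 10 days and 355 and 281 CPM at 5 days in PD-1+ libraries, against 112 and 137 CPM at 10 days and 263 and 189 CPM at 5 days in PD-1- libraries (0.72 ± 0.16, edgeR adjusted p = 0.0025). PD-1- 5-day replicate 2 reached into the PD-1+ range. Its partner Psme1 had 463 and 417 CPM at 10 days and 519 and 455 CPM at 5 days in PD-1+ libraries, against 260 and 297 CPM at 10 days and 508 and 417 CPM at 5 days in PD-1- libraries, and was not called (0.37 ± 0.15, edgeR adjusted p = 0.060). Psme3, the nuclear PA28 gamma chain (0.51 ± 0.23, edgeR adjusted p = 0.091), Psmf1, an inhibitor of the core particle in vitro (0.18 ± 0.17), and Psme4, the activator PA200 (-0.10 ± 0.20), were not called.

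Psme2b, which shares 41 exon bases on the same strand with 9930111J21Rik1 (683 counts against 280), was the 1 gene called lower. It had 8.55 and 10.5 CPM at 10 days and 7.72 and 12.9 CPM at 5 days in PD-1+ libraries, against 17.8 and 15.0 CPM at 10 days and 24.6 and 17.0 CPM at 5 days in PD-1- libraries (-0.90 ± 0.29, edgeR adjusted p = 0.022). It is a near-identical copy of Psme2 on chromosome 11 (GRCm38, 48945354 to 48946190), so short reads may be divided uncertainly between them, and its call was lost without PD-1+ 10-day replicate 1 (-0.86), PD-1+ 5-day replicate 2 (-0.74), PD-1- 10-day replicate 1 (-0.87) or PD-1- 5-day replicate 2 (-0.76).

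The catalytic subunits were next compared in pairs, each immunoproteasome subunit with the constitutive one whose place it takes. Psmb8 and Psmb9 lie close together in the MHC on chromosome 17 (GRCm38, 34197721 to 34201454 on the plus strand and 34181987 to 34187764 on the minus strand), with Psmb9 head to head with the peptide transporter gene Tap1. Psmb10 is on chromosome 8 (105935735 to 105938444), Psmb5 on chromosome 14 (54614119 to 54618022), Psmb6 on chromosome 11 (70525367 to 70527858) and Psmb7 on chromosome 2 (38588036 to 38644087). The upstream sequences of 4 of the genes and of an alpha subunit are shown because the constitutive and interferon-inducible genes are known for different regulatory elements. They are RefSeq sequences on GRCm38.p6, 5′ to 3′ on the coding strand, given as the 250 bases before the RefSeq start, and for Psmb9 as the 225 bases between its RefSeq start and that of Tap1. RefSeq and GENCODE place some starts differently: the stretches of Psmb8 and Psmb9 lie inside the GENCODE spans of these genes, those of Psmb5 and Psma4 overlap theirs in part, and that of Psmb6 lies before its gene. Capitals mark TTCNNNGAA (gamma-activated site) in Psmb8, GGGCGG (GC box) and the reverse complement of CCAAT in Psmb9, and TGACNNNGC or TGAGNNNGC (antioxidant response element) in Psmb5, Psmb6 and Psma4.
Psmb9 to Tap1 (chr17:34187331-34187555, minus strand): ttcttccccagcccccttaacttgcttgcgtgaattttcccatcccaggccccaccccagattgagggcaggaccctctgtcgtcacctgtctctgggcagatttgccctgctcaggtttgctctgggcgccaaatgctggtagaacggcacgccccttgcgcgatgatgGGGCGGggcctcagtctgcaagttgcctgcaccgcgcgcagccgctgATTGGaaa
Psmb8 (chr17:34197945-34198194, plus strand): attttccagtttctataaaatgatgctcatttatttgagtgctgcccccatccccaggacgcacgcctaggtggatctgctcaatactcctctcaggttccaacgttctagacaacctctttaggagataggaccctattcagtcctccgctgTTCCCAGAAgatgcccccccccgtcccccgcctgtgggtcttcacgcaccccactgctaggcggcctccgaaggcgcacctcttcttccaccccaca
Psmb5 (chr14:54617996-54618245, minus strand): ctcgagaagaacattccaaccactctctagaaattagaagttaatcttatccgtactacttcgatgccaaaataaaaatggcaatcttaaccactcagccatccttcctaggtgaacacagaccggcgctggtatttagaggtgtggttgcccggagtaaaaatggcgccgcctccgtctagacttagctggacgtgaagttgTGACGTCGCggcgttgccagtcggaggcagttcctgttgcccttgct
Psmb6 (chr11:70525107-70525356, plus strand): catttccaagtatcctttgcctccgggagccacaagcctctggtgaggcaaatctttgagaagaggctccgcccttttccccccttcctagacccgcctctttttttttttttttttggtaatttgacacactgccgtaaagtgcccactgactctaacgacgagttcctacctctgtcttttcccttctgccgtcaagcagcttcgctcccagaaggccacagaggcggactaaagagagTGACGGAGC
Psma4 (chr9:54950609-54950858, plus strand): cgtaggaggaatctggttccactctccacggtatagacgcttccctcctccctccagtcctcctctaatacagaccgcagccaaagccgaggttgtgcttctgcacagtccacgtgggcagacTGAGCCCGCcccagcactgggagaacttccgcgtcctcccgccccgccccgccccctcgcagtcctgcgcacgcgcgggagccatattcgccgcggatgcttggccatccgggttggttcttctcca
Motifs were searched on both strands of promoters from 250 bases before to 50 after the start, which RefSeq gave for 41 of the 48 genes and for 27025 genes in all. An antioxidant response element in either form was in 27.7% of all promoters and in 11 of 25 constitutive barrel and cap genes (44.0%), and in 0 of the 5 genes Psmb8, Psmb9, Psmb10, Psme1 and Psme2. A gamma-activated site was in 8.47% of all promoters and in 3 of the 41 (7.32%): Psmb8, Psmd2 and Psmg1. The core of the interferon-stimulated response element, GAAA followed by NN and a second GAAA, was in 3.49% of all and in 5 of the 41 (12.2%): Psme1, Psmb3, Psmd4, Psmd9 and Psmg4. Each of these elements was thus in 1 of the 5 inducible genes and in others outside that set. A GC box was in 35.9% of all and in 23 of the 41 (56.1%), and a CCAAT box in 37.9% and in 14 (34.1%). These matches describe letters in a fixed window and say nothing of binding.

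All 3 immunoproteasome subunits and all 3 constitutive ones were higher in PD-1+ cells over both ages, with Psmb8 furthest apart. Psmb8 had 917 and 802 CPM at 10 days and 1250 and 945 CPM at 5 days in PD-1+ libraries, against 285 and 352 CPM at 10 days and 612 and 493 CPM at 5 days in PD-1- libraries. No PD-1- library reached the PD-1+ range (1.21 ± 0.15, edgeR adjusted p = 1.9e-05). Its constitutive counterpart Psmb5 had 71.6 and 65.0 CPM at 10 days and 124 and 94.1 CPM at 5 days in PD-1+ libraries, against 39.2 and 35.1 CPM at 10 days and 63.2 and 72.1 CPM at 5 days in PD-1- libraries (0.78 ± 0.16, edgeR adjusted p = 0.0015). Of the PD-1- libraries, 5-day replicate 3 alone exceeded the lowest PD-1+ library.

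Psmb9, which takes the place of the caspase-like subunit, had 293 and 232 CPM at 10 days and 272 and 219 CPM at 5 days in PD-1+ libraries, against 110 and 131 CPM at 10 days and 259 and 164 CPM at 5 days in PD-1- libraries (0.66 ± 0.21, edgeR adjusted p = 0.025). PD-1- 5-day replicate 2 lay inside the PD-1+ range. The call was lost without PD-1+ 10-day replicate 2 (edgeR adjusted p = 0.055), PD-1- 10-day replicate 1 (0.086), PD-1- 10-day replicate 2 (0.081) or PD-1- 5-day replicate 3 (0.052). Psmb9 shares 212 exon bases with Tap1 on the opposite strand, and the strand setting of the counting is not given. Psmb6, the constitutive counterpart, had 185 and 167 CPM at 10 days and 341 and 263 CPM at 5 days in PD-1+ libraries, against 94.2 and 124 CPM at 10 days and 163 and 204 CPM at 5 days in PD-1- libraries (0.71 ± 0.14, edgeR adjusted p = 0.0012). Here too 5-day replicate 3 was the 1 PD-1- library inside the PD-1+ range.

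Psmb10, the inducible trypsin-like subunit, had 205 and 168 CPM at 10 days and 297 and 219 CPM at 5 days in PD-1+ libraries, against 88.7 and 116 CPM at 10 days and 214 and 135 CPM at 5 days in PD-1- libraries (0.71 ± 0.17, edgeR adjusted p = 0.0046). Psmb7, the subunit it displaces, had 65.2 and 67.1 CPM at 10 days and 114 and 107 CPM at 5 days in PD-1+ libraries, against 42.8 and 56.6 CPM at 10 days and 70.6 and 69.3 CPM at 5 days in PD-1- libraries (0.55 ± 0.16, edgeR adjusted p = 0.012). In both genes at least 1 PD-1- library at 5 days exceeded the lowest PD-1+ library. Psmb7 shares 405 exon bases on the opposite strand with Nek6, which had 275 counts against 1379.

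**Figure D3:**
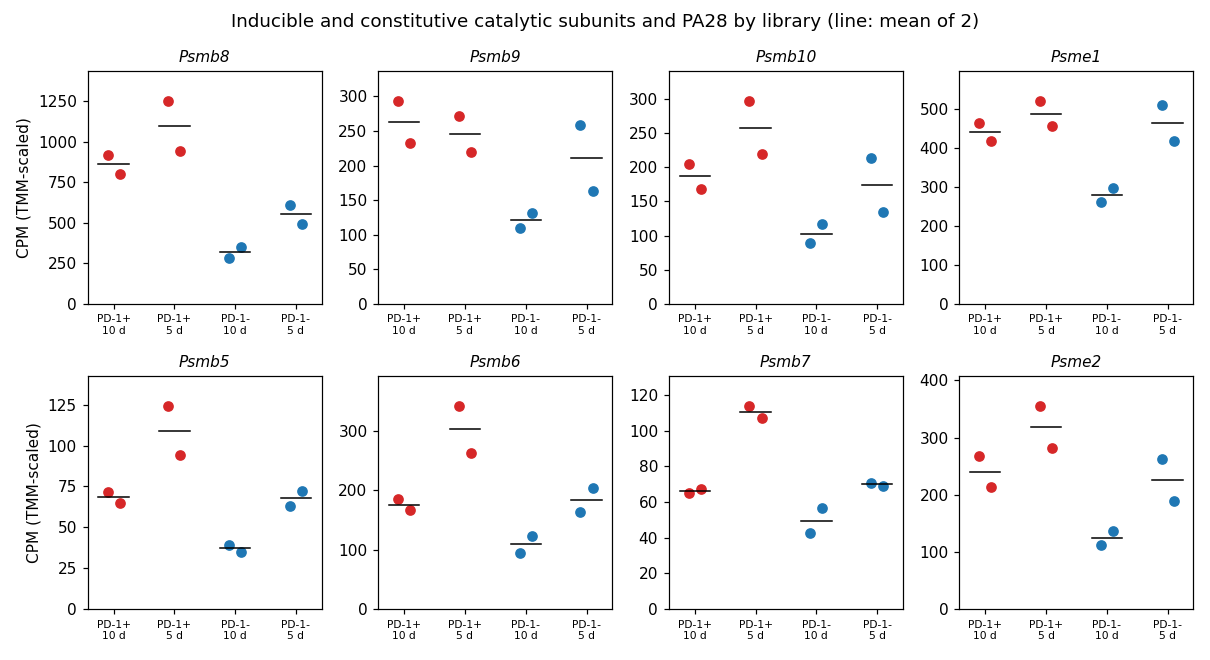
CPM of the inducible subunits Psmb8, Psmb9, Psmb10 and Psme1 (top row) and of the constitutive subunits Psmb5, Psmb6 and Psmb7 with Psme2 (bottom row) in each library (points), with the mean of each group of 2 libraries (lines); PD-1+ groups are red and on the left. Psmb8 separates PD-1+ from PD-1- libraries, while Psmb9, Psmb10 and Psme2 show 1 high 5-day PD-1- library. For Psme1 both 5-day PD-1- libraries lie inside the PD-1+ range.

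Per kilobase of the main annotated transcript, Psmb8 was the most abundant of the 48 genes in PD-1+ cells, at 601 ± 118 CPM per kb (SD, n = 4) against 267 ± 89.7 in PD-1- cells, where Psme1 led with 333 ± 102. Psmb5 was at 98.6 ± 29.6 CPM per kb in PD-1+ and 58.3 ± 20.1 in PD-1- cells, below Psmb8 in both. Psmb10 (170 ± 41.3 in PD-1+ and 106 ± 41.0 in PD-1- cells) likewise lay above Psmb7 (76.2 ± 22.2 in PD-1+ and 51.6 ± 11.2 in PD-1- cells). The order was the other way in the third pair, where Psmb9 was at 188 ± 25.4 CPM per kb in PD-1+ and 123 ± 48.7 in PD-1- cells, and Psmb6 at 299 ± 100 in PD-1+ and 183 ± 59.7 in PD-1- cells; within each population these SDs overlap. The assembly chaperones were scarce, with a median of 22.1 CPM per kb in PD-1+ and 22.9 in PD-1- cells. These levels depend on the transcript length assigned to each gene and on priming from the poly(A) tail.

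The ratio of the 3 immunoproteasome subunits to the 3 constitutive ones, from summed counts, was 4.4 and 4.02 in PD-1+ libraries at 10 days and 3.14 and 2.98 at 5 days. In PD-1- libraries it was 2.74 and 2.79 at 10 days and 3.65 and 2.29 at 5 days. The populations were apart at 10 days, with a log2 difference of 0.61, and overlapped at 5 days, with a difference of 0.08, where PD-1- replicate 2 was above both PD-1+ libraries. Over both ages the log2 ratio was 1.84 ± 0.27 in PD-1+ and 1.50 ± 0.28 in PD-1- cells (SD, n = 4), a difference of 0.34 with overlapping libraries. It is a score over chosen genes and was given no test.

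By pair, the log2 ratio of Psmb8 to Psmb5 was 3.49 ± 0.19 in PD-1+ and 3.06 ± 0.28 in PD-1- cells, and did not overlap, although the lowest PD-1+ library (3.33) and the highest PD-1- library (3.33) were nearly equal. Psmb9 to Psmb6 was 0.14 ± 0.51 in PD-1+ and 0.17 ± 0.41 in PD-1- cells. PD-1+ minus PD-1- was 0.42 at 10 days and -0.47 at 5 days. Psmb10 to Psmb7 was 1.35 ± 0.26 in PD-1+ and 1.16 ± 0.29 in PD-1- cells, which overlapped.

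**Figure D4:**
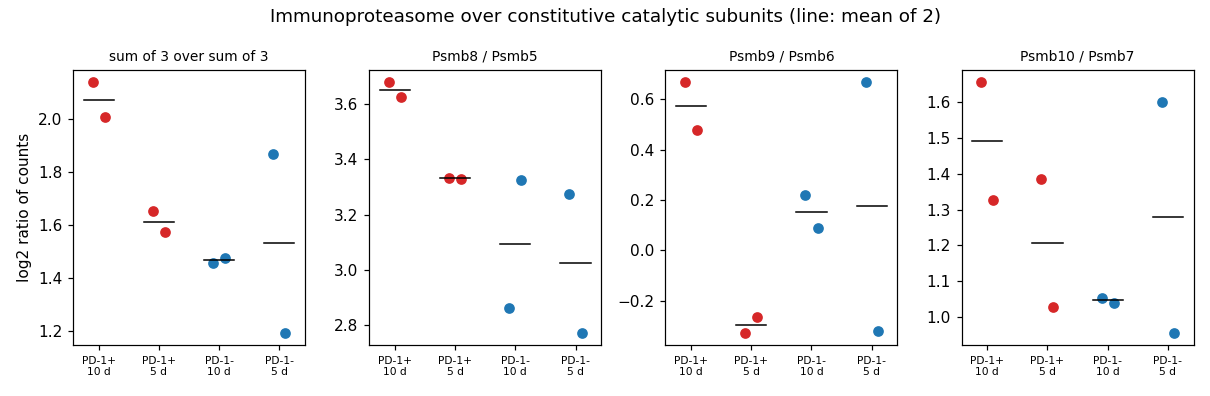
Log2 ratio of immunoproteasome to constitutive catalytic subunits by library (points) for the summed counts and for each of the 3 pairs, with group means (lines), PD-1+ groups in red on the left. For the sum, 10-day PD-1+ libraries sit at 2.14 and 2.01, above all others, and 5-day PD-1- libraries are spread between 1.87 and 1.20.

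PD-1+ cells were also compared with PD-1- cells within each age. At 10 days 28 genes were called higher and 0 lower by edgeR (0 at an unadjusted p below 0.05, 0 lower by DESeq2, and 16.4% of all tested genes were higher and 12.9% lower). At 5 days 31 were higher and 0 lower by edgeR (1 at an unadjusted p below 0.05, 0 lower by DESeq2), where 17.6% of all tested genes were higher and 16.7% lower. The higher calls at 10 days numbered 15 without PD-1+ 10-day replicate 1, and also 15 without PD-1- 10-day replicate 1. A total of 22 genes were called at both ages. Those called at 10 days and not at 5 days were Psma3, Psmb9, Psmb10, Psmd10, Psme1 and Psme2, so 4 of these 6 belong to the interferon-inducible set of Psmb8, Psmb9, Psmb10, Psme1 and Psme2. Psmb9 differed by 1.13 ± 0.22 at 10 days (edgeR adjusted p = 0.0012) and by 0.21 ± 0.21 at 5 days (edgeR adjusted p = 0.48), and Psme1 by 0.66 ± 0.15 (0.0034) and 0.07 ± 0.15 (0.75).

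The difference of these differences was tested as an interaction of age and PD-1, and 0 of the 48 genes were called by edgeR (2 positive and 4 negative at an unadjusted p below 0.05, 0 called by DESeq2), with 2.12% of all tested genes called. Psmb9 had 0.92 ± 0.30 (edgeR adjusted p = 0.14), Psme1 0.59 ± 0.22, Psme2 0.47 ± 0.27, Psmb8 0.45 ± 0.24 and Psmb10 0.32 ± 0.33. Without the filter on low counts, Psmb9 was called at 0.98 (edgeR adjusted p = 0.012). With a block for same-numbered libraries, Psmb9 (0.89, edgeR adjusted p = 0.041) and Psmc5 (-0.80, 0.042) were called. With all libraries, the filter and no block, all 5 inducible genes were positive, with a median of 0.47. Of the other 43 genes 7 were positive, with a median of -0.23. Among all 11490 tested genes 6052 were positive, with a median of 0.04. In that fit the smallest adjusted p of the 48 belonged to the ATPase Psmc5, at -0.80 ± 0.22 (edgeR adjusted p = 0.074).

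The 5-day PD-1- libraries differed from each other in the inducible genes. Replicate 2 exceeded replicate 3 by 0.67 on the log2 scale for Psmb10, 0.66 for Psmb9, 0.48 for Psme2, 0.31 for Psmb8 and 0.29 for Psme1, against a median of 0.06 over the 48 genes. The interferon response genes Gbp2 (982 and 302 CPM) and Gbp4 (1100 and 471 CPM) were also higher in replicate 2 than in replicate 3. Their part in the result was not tested. In 5-day PD-1+ libraries, replicate 2 also exceeded replicate 3 in the inducible genes. Psmb8 was at 1250 and 945 CPM, Psmb9 at 272 and 219 CPM, and Psmb10 at 297 and 219 CPM. Psme2 was at 355 and 281 CPM, Psme1 at 519 and 455 CPM, and Gbp2 at 626 and 334 CPM. Gbp4 was nearly level (318 and 325 CPM). The median over the 48 genes was 0.17 there. By sex-linked counts replicate 2 was female and replicate 3 male at 5 days, so sex and animal cannot be told apart. Without PD-1- 5-day replicate 2, PD-1+ over PD-1- at 5 days was 0.94 for Psmb10 (edgeR adjusted p = 0.0080) and 0.75 for Psme2 (0.019), both then called, 0.59 for Psmb9 (0.065) and 0.23 for Psme1 (0.42), and the interaction was 0.55 for Psmb9 and -0.06 for Psmb10. Without replicate 3 in its place, the interaction of Psmb9 was 1.19 and was called (edgeR adjusted p = 0.020). Psmd3 had a called interaction without PD-1+ 10-day replicate 2 (-2.07, edgeR adjusted p = 0.0011), against -1.07 ± 0.77 with all libraries.

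In PD-1+ cells, proteasome genes were lower at 10 than at 5 days. Of the 48, 26 were called lower and 0 higher by edgeR (0 at an unadjusted p below 0.05, 0 higher by DESeq2), against 6.98% of all tested genes lower and 7.39% higher. In 39 genes both 10-day libraries lay below both 5-day libraries, as in 27.2% of all tested genes. The calls comprised 6 of 6 ATPases, 5 of 7 alpha subunits, 3 of 3 constitutive catalytic subunits, 3 of 4 other beta subunits, 7 of 11 non-ATPases, 1 of 7 chaperones and 1 of 6 regulators. They ran from -0.55 in Psmc3 to -1.20 ± 0.29 in Psme3, which had 22.4 and 30.6 CPM at 10 days, against 73.6 and 48.2 CPM at 5 days. Psmc5, with 164 and 163 CPM at 10 days, against 328 and 282 CPM at 5 days, had the smallest p (-0.90 ± 0.16, edgeR adjusted p = 0.0012). Psmg1, an alpha-ring chaperone, had 22.1 and 34.8 CPM at 10 days, against 54.0 and 74.5 CPM at 5 days (-1.18 ± 0.28, edgeR adjusted p = 0.011).

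Catalytic subunits were divided in this comparison. Psmb5 (-0.67 ± 0.22), Psmb6 (-0.78 ± 0.18) and Psmb7 (-0.74 ± 0.21) were all called, whereas Psmb8 (-0.35 ± 0.17, edgeR adjusted p = 0.17), Psmb9 (0.10 ± 0.21, 0.81) and Psmb10 (-0.47 ± 0.23, 0.20) were not, and neither were Psme1 (-0.15 ± 0.15) and Psme2 (-0.40 ± 0.19). The difference between the 2 sets of genes was not tested. In the ratio of summed counts, the 10-day PD-1+ libraries were above the 5-day ones by 0.46 on the log2 scale. The remaining genes called lower were Psma2, Psma4, Psma5, Psma6, Psma7, Psmb1, Psmb2, Psmb4, Psmc1, Psmc2, Psmc4, Psmc6, Psmd1, Psmd2, Psmd6, Psmd7, Psmd11, Psmd12 and Psmd13, and 24 of the 26 were also higher in the PD-1+ population. With 2 libraries a side, the count of calls depended on single libraries. Without any 1 of the PD-1+ libraries, fewer of the 48 and fewer of all tested genes were called lower. The median log2 fold change over the 48 genes was -0.62 with all libraries. It was -0.65 without PD-1+ 10-day replicate 1 and -0.57 without PD-1+ 10-day replicate 2. Without PD-1+ 5-day replicate 2 it was -0.53, and without PD-1+ 5-day replicate 3 it was -0.69. Psmc5 kept its call in all 8 of the fits that left out 1 library, and without both male libraries 18 genes were lower.

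In PD-1- cells 0 genes were called between 10 and 5 days by edgeR (0 higher and 22 lower at an unadjusted p below 0.05, 3 lower by DESeq2), where 0.122% of all tested genes were lower and 0.148% higher. Both 10-day libraries lay below both 5-day libraries in 30 genes, as in 20.7% of all tested genes, and above in 2, as in 19.2%. Psme2 (-0.87 ± 0.20, edgeR adjusted p = 0.076), Psmb8 (-0.80 ± 0.17, 0.063) and Psme1 (-0.74 ± 0.15, 0.060) were the 3 called by DESeq2. Psmb9 and Psmb10 were at -0.82 ± 0.22 and -0.78 ± 0.24, and the median of the interferon-inducible set was -0.80 in PD-1- cells, against -0.34 for the other 43 genes. Single libraries decided these calls: all 5 of the set were called by edgeR without PD-1- 5-day replicate 3, and 0 of the 48 genes without PD-1- 5-day replicate 2 (14 lower at an unadjusted p below 0.05), where Psmb9 was at -0.45 and Psmb10 at -0.40.

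**Figure D5:**
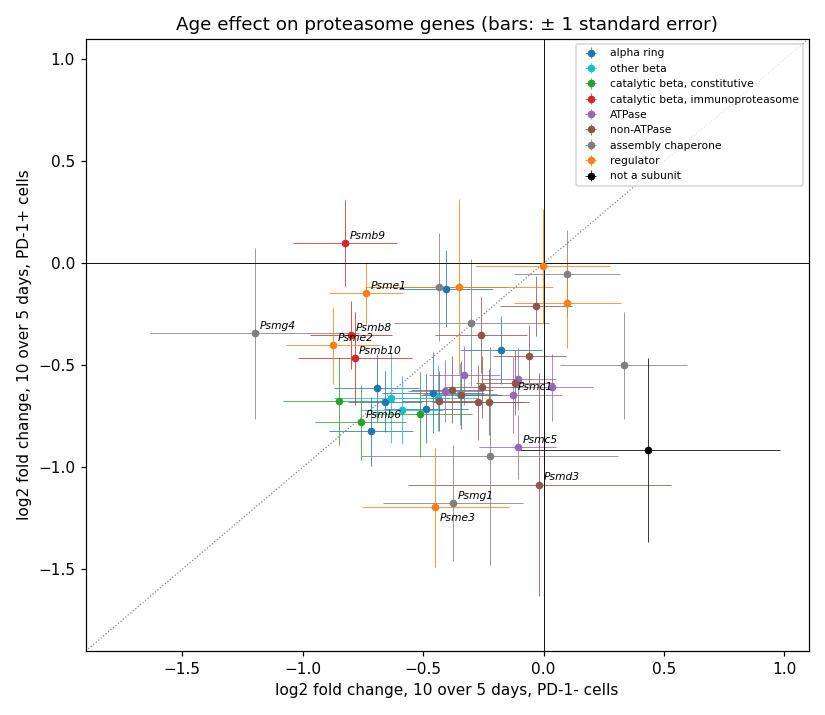
Log2 fold change of 10 over 5 days in PD-1+ cells (y axis) against that in PD-1- cells (x axis) for the 48 genes, coloured by role, with bars of 1 standard error and a dotted line of equality; the axes share no libraries. Psmb8, Psmb9, Psmb10, Psme1 and Psme2 lie above the line, and ATPases such as Psmc5 and Psmc1 lie below it.

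Genes that work with the proteasome were examined from lists, whose counts over both ages stand beside 21.9% of all tested genes higher and 19.6% lower in PD-1+ cells. Of 11 tested partners outside the Psm symbols, 4 were higher in PD-1+ cells over both ages, 0 lower (edgeR; 0 at an unadjusted p below 0.05) and 7 not called. Pomp, the chaperone that completes the barrel, had 164 and 156 CPM at 10 days and 278 and 249 CPM at 5 days in PD-1+ libraries, against 70.3 and 91.7 CPM at 10 days and 114 and 139 CPM at 5 days in PD-1- libraries (1.03 ± 0.14, edgeR adjusted p = 3.4e-05). Its groups did not overlap. The cap-bound thioredoxin Txnl1 (0.98 ± 0.14), the deubiquitinase Usp14 (0.58 ± 0.17) and the cap subunit Sem1 (0.56 ± 0.18) were the others. In PD-1+ cells Pomp (-0.72 ± 0.17), Uchl5 (-0.75 ± 0.17) and Usp14 (-0.55 ± 0.16) were lower at 10 than at 5 days. Of 18 genes for ubiquitin and its shuttles, 5 were higher and 1 lower in the PD-1+ population, a share of higher calls near that of all tested genes, including the activating enzyme Uba1 (0.51 ± 0.13) and the unfoldase Vcp (0.48 ± 0.14), with Nub1, which delivers ubiquitin-like modifiers to the proteasome, lower (-0.45 ± 0.16).

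Of 10 transcription factor and related genes linked to proteasome gene control or stress, 0 were higher, 5 lower and 5 not called in PD-1+ cells over both ages (edgeR; 0 higher at an unadjusted p below 0.05). Among all tested genes 21.9% were higher and 19.6% lower. Nfe2l2, which binds antioxidant response elements, had 70.9 and 68.5 CPM at 10 days and 106 and 85.0 CPM at 5 days in PD-1+ libraries, against 243 and 198 CPM at 10 days and 214 and 210 CPM at 5 days in PD-1- libraries (-1.41 ± 0.15, edgeR adjusted p = 3.8e-06). Bach2 (-2.60 ± 0.21), Foxo1 (-1.59 ± 0.16) and Foxo4 (-1.72 ± 0.30) were also lower. Nfe2l1, whose product restores proteasome genes when the proteasome is inhibited, was at 40.6 to 61.5 CPM in PD-1+ libraries, against 38.6 to 59.2 CPM in PD-1- libraries.

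Of 10 genes for loading peptides on MHC class I, 5 were higher in PD-1+ cells and 0 lower (edgeR, 0 lower at an unadjusted p below 0.05). Among all tested genes 21.9% were higher and 19.6% lower. The 5 were Tapbpl (1.09 ± 0.24), the endoplasmic reticulum chaperones Calr (0.79 ± 0.17), Canx (0.72 ± 0.18) and Pdia3 (0.64 ± 0.17), and B2m (0.68 ± 0.23). Tap1, which shares the upstream region of Psmb9, was not called, with 877 and 734 CPM at 10 days and 651 and 525 CPM at 5 days in PD-1+ libraries, against 377 and 360 CPM at 10 days and 809 and 477 CPM at 5 days in PD-1- libraries. As in Psmb9, PD-1- 5-day replicate 2 lay inside the PD-1+ range. The interaction of age and PD-1 was called in 3 of the 10 genes, against 2.12% of all tested genes. It was positive in B2m, the light chain of class I (1.19 ± 0.21, edgeR adjusted p = 0.0093), and negative in Canx (-1.05 ± 0.19, 0.0081) and Pdia3 (-0.89 ± 0.20, 0.032). Of 14 genes of interferon-gamma and its signalling, 4 were higher and 3 lower over both ages, shares near those of all tested genes. At 5 days 4 were higher and 6 lower, against 17.6% of all tested genes higher and 16.7% lower. At 10 days 4 were higher and 2 lower, against 16.4% higher and 12.9% lower. Ifng itself was at 302 to 633 CPM in PD-1+ libraries, against 0 to 5.18 CPM in PD-1- libraries. The receptor chain Ifngr2 ran the other way, at 0.712 to 9.55 CPM in PD-1+ libraries, against 82.6 to 169 CPM in PD-1- libraries, and the receptor kinase Jak1 was also lower (-0.83 ± 0.12). Jak2 of the same list was higher, at 93.7 to 107 CPM in PD-1+ libraries, against 44.3 to 65.7 CPM in PD-1- libraries. So were Irf8 (129 to 273 CPM, against 7.15 to 29.2 CPM) and Cxcl10 (25.3 to 41.2 CPM, against 0.568 to 2.6 CPM).

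Cell cycle genes also differed between the groups: 14 of 15 were higher in PD-1+ cells over both ages, against 21.9% of all tested genes. Their summed level was 5030 to 7660 CPM in PD-1+ libraries, against 2280 to 3910 CPM in PD-1- libraries. This level and the summed markers below were scaled to total counts, without the TMM factor. In PD-1+ cells 10 of the 15 were lower at 10 than at 5 days, against 6.98% of all tested genes. Summed markers of other liver cell types differed between the populations in several lists. Of 8 hepatocyte markers 4 were tested and 3 were higher in PD-1+ cells, with a summed level of 25.4 to 69.5 CPM in PD-1+ libraries, against 11.1 to 20.9 CPM in PD-1- libraries, and of 7 dendritic markers 3 were tested and 1 was higher (28.4 to 73.9 CPM in PD-1+ libraries, against 9.6 to 23.3 CPM in PD-1- libraries). Summed B cell markers were at 272 to 313 CPM in PD-1+ libraries, against 561 to 691 CPM in PD-1- libraries. Of 7 B cell markers 6 were tested and 1 was called lower. Summed endothelial and stromal markers were at 102 to 137 CPM in PD-1+ libraries, against 313 to 388 CPM in PD-1- libraries. Of these 7 markers 1 alone had enough counts to be tested, and it was called lower. Macrophage markers (34.3 to 51.7 CPM in PD-1+ libraries, against 32.1 to 75.6 CPM in PD-1- libraries) overlapped. So did NK markers (23.2 to 107 CPM in PD-1+ and 13.6 to 105 CPM in PD-1- cells) and neutrophil markers (1.81 to 4.57 and 1.17 to 2.65 CPM). Summed erythroid markers were lower in PD-1+ libraries without overlap (2.71 to 5.28 CPM, against 11.5 to 30.5 CPM in PD-1- libraries). Of these 8 markers 1 alone was tested, and it was called lower. Summed CD8 markers were also lower without overlap (5.42 to 27.1 CPM in PD-1+ libraries, against 30 to 48.7 CPM in PD-1- libraries). The 2 CD8 markers ran in opposite directions: 1 was called lower (log2 fold change -1.92) and 1 was positive and not called (0.62). In none of these lists was a marker at 0 in all 8 libraries, and their part in the proteasome values was not tested.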

How the data were processed

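Total RNA of sorted liver CD4+ T cells was reverse transcribed from an anchored oligo(dT) primer and sequenced as short paired reads, per the labels' protocols. The values the authors deposited are raw counts by gene symbol in 8 columns. The submitters' processing notes list STAR 2.5.4, featureCounts and mm10; the sources used here do not give the annotation, the strand setting or the treatment of multiply mapped reads.

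Counts were tested with edgeR 4.0.16 in R 4.3.3: filterByExpr by the 4 groups, TMM scaling, robust quasi-likelihood F tests, and Benjamini-Hochberg adjustment over 11490 genes, called below 0.05. The effect over both ages came from a model with age and PD-1 as terms, and the other comparisons from 1 mean per group, without a replicate block. DESeq2 1.42.0 was an alternative. Standard errors belong to log2 fold changes, and ± beside levels is the SD between libraries. Replicates of a group differed beyond counting error (chi-square per degree of freedom 4.28 to 9.59). On simulated data for the PD-1 effect over both ages with 11490 genes, 65 of 100 genes changed 2-fold and 94 of 100 changed 4-fold were recovered, with 10 false calls. Lengths and coordinates came from GENCODE M21 on GRCm38.

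The proteasome genes and all lists were chosen with earlier results of these data known. Named in full were the catalytic subunits, regulators, and from each other role the 3 largest and 2 smallest differences. Also named were genes called lower or for age, and from each list at most 4 genes by smallest p. Ifng, Jak2, Irf8, Cxcl10, Tap1, Gbp2, Gbp4, Nfe2l1, B2m and Psmd14 were added after their values were seen. Results of some genes were left out here.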

Additional observations from a re-analysis of the deposited data

Results flagged for a closer look

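In 96 groups of 4 libraries (each of 48 genes in each population), the highest or lowest library was compared with the others by Dixon's criterion. Chance meets it in about 1 of 20 groups of like libraries, while each group here mixed 2 ages. The criterion was met by 4 values, no more than that rate gives. Psma3 was at 98.4 CPM in PD-1+ 10-day replicate 2, below 114 to 116 CPM in the other PD-1+ libraries. Psmd10, the gankyrin gene, was at 23.6 CPM in PD-1- 10-day replicate 1, below 39.7 to 42.6 CPM in the other PD-1- libraries. Psmd9, another ATPase chaperone, was at 29.5 CPM in the same PD-1- library, below 48 to 51.4 CPM. Psmg2, a chaperone of the alpha ring, was at 63.1 CPM in PD-1- 10-day replicate 2, above 40.9 to 43.4 CPM.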

How the results depend on the processing

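Leaving out 1 library at a time gave 31 to 37 genes higher in PD-1+ cells over both ages, 15 to 28 at 10 days and 25 to 33 at 5 days, 0 to 1 lower over both ages, 2 to 28 lower with age in PD-1+ cells, 0 to 5 lower with age in PD-1- cells and 0 to 1 with an interaction, and a log2 difference of the summed ratio of 0.24 to 0.47. Without the filter on low counts, where more genes were tested, 0 genes were lower over both ages, 17 were lower with age in PD-1+ cells, 8 in PD-1- cells, and 1, Psmb9, had a called interaction. With age in PD-1- cells, DESeq2 called 3 genes and the fit without both libraries of 5-day replicate 3 called 5; the cause was not tested. DESeq2 called 22 genes higher at 10 days and upper-quartile scaling also 22. Of 37 calls over both ages, 29 were kept in all 8 fits that left out 1 library, as were 12 of 28 at 10 days, 24 of 31 at 5 days and 1 of 26 with age in PD-1+ cells. Over 1836 gene values under alternatives, 0 called values changed sign. Same-numbered libraries correlated at 0.114 at 10 days and 0.094 at 5 days, and same-numbered 5-day libraries matched in sex. The labels state no pairing and the main fit used none, but such correlations cannot exclude a pairing. With the replicate block, 36 genes were higher over both ages, 29 at 10 days and 33 at 5 days. In that fit 2 genes, Psmb9 and Psmc5, had a called interaction (edgeR adjusted p = 0.041 and 0.042). With 2 libraries a group, small differences and the genes under 20 CPM were the least certain.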

Other observations

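Psmc3ip, a partner of the meiotic recombinases that the symbol pattern took in, had 9.62 and 9.84 CPM at 10 days and 20.1 and 16.7 CPM at 5 days in PD-1+ libraries, against 6.48 and 3.90 CPM at 10 days and 3.56 and 4.54 CPM at 5 days in PD-1- libraries (1.51 ± 0.39 on the log2 scale, edgeR adjusted p = 0.0063). Every PD-1+ library lay above every PD-1- library. It shares 385 exon bases with Mlx on the opposite strand, which had 1403 counts against 174 for Psmc3ip, so with the strand setting unknown the source of these counts is uncertain. Psmb11, the thymic cortical subunit, had 0 and 2 counts at 10 days and 1 and 5 counts at 5 days among PD-1+ cells, against 4 and 0 counts at 10 days and 1 and 2 counts at 5 days among PD-1- cells.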
